A study of Canis lupus familiaris and Dasypus novemcinctus and Ornithorhynchus anatinus with 3 samples.

Results

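Messenger RNA of pregnant endometrium, the lining of the uterus, was compared between armadillo (Dasypus novemcinctus) and platypus (Ornithorhynchus anatinus), gene by gene. The 2 species were represented by 1 library each, and a dog library of the same series was used only as a side value and for gene lengths. The labels give the tissue and the pregnant state of each library. They do not give the stage of pregnancy, the number of animals, their age or any treatment. Genes were paired by symbol. Of 16741 symbols that occurred once in at least 1 of the 3 tables, 7296 occurred once in both the armadillo and the platypus table, and 4237 of those reached 2 CPM (counts scaled to the library's total of gene reads) in both. These 4237 genes are the members described here.

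The endometrium consists of a surface and gland epithelium, a stroma of fibroblasts in extracellular matrix, and blood vessels, with smooth muscle beneath it. In placental mammals such as the armadillo, the embryo implants and is fed through a placenta that lies against maternal stroma and vessels. The platypus lays eggs. Its embryo is held in the uterus for a time inside a shelled egg, which takes up fluid secreted by the uterine glands before it is laid. Secreted proteins are folded and glycosylated in the endoplasmic reticulum (ER), moved through the Golgi and released. Stromal cells and muscle deposit collagens, laminins and matricellular proteins.

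The armadillo table held 13218476 reads in 12335 genes and the platypus file 2243556 reads in 18481 genes, so 2 CPM stood for 26.4 armadillo reads and 4.49 platypus reads. The members held 51.2% of the armadillo reads and 59.5% of the platypus reads, with a median of 522 and 61 reads per gene, and 441 members had fewer than 10 platypus reads. Of the other matched genes, 2028 reached 2 CPM in armadillo alone, of which 1356 were at 0 in platypus, 296 reached it in platypus alone and 735 in neither. The 2028 and the 296 cannot be weighed against each other. Every armadillo entry had reads, whereas 7828 platypus entries had none. Another 1402 platypus symbols at 2 CPM had no armadillo entry to be paired with, and their armadillo level is not known. At the limit itself, ADORA2A, RBP2 and SIRT6 entered with 27 armadillo reads and SLC1A1, DNAI2 and IQCG stayed out with 26. On the platypus side ZNF365, SKP2 and CSMD2 entered with 5 reads, and PDE7A, REL and RFX2 stayed out with 4. Levels below are normalised CPM, which is CPM scaled so that the median armadillo-to-platypus ratio over the members is 1. They are not corrected for gene length and so compare a gene between libraries, not genes with each other. A difference was called where the ratio was 4 or more. Intervals are exact 95% intervals of the ratio and cover counting error only. With 1 library per species there was no replicate spread and no p-value, and no ratio can be separated from differences between animals, stages, libraries or gene annotations.

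Of the 4237 members, 891 (21.0%) were at least 4-fold higher in armadillo, 803 (19.0%) were at least 4-fold higher in platypus, and 1694 (40.0%) differed by 4-fold in either direction. These shares are the background for every gene group below. Only 32.5% of members lay within 2-fold of each other. The middle 50% of log2 ratios (armadillo over platypus) ran between -1.54 and 1.66. Ratios of 16 or more were reached by 230 genes higher in armadillo and by 145 higher in platypus. The ranks of the levels in the 2 libraries had a Spearman correlation of 0.31 across genes, given as a description. For 286 of the armadillo calls and 154 of the platypus calls the counting interval reached below 4. Close to the limit, TIMM17B was called in favour of armadillo with 33.4 in armadillo and 8.34 in platypus, and SLC25A24 just missed it with 94.2 in armadillo and 23.6 in platypus.

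**Figure D1:**
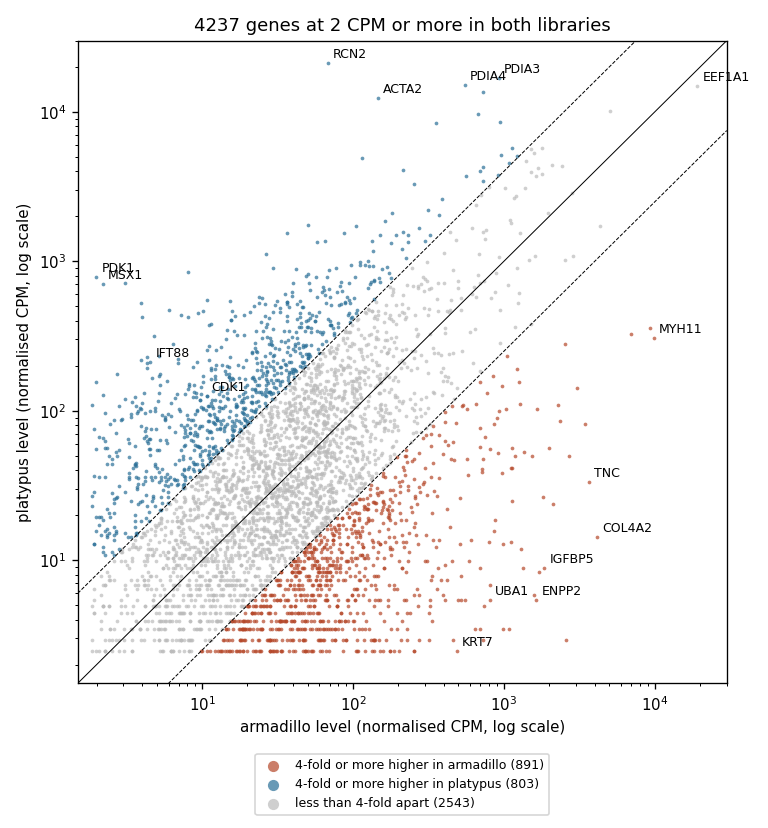
Each point is 1 of 4237 genes, with its level in armadillo (x axis) and in platypus (y axis), both in normalised CPM on log scales. Red points are the 891 genes at least 4-fold higher in armadillo, blue points the 803 at least 4-fold higher in platypus and grey points the other 2543; the solid line marks equal levels and the dashed lines 4-fold. The rows of points at the bottom are genes with few platypus reads.

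Among genes with at least 10 reads in the lower library, the largest ratio in favour of armadillo was that of ENPP2 (autotaxin, a secreted enzyme that makes lysophosphatidic acid; ENSDNOG00000005336 and ENSOANG00000020330). ENPP2 had 1642 normalised CPM in armadillo and 5.40 in platypus, a ratio of 304 (95% interval 170.0 to 609). CHI3L1, a secreted chitinase-like glycoprotein, had 1578 in armadillo and 5.89 in platypus. IGFBP5, which binds insulin-like growth factors, had 1854 in armadillo and 8.83 in platypus, a ratio of 209.9 (133 to 354). These genes had 11, 12 and 18 platypus reads, and the ratios have wide counting intervals for that reason. The 20 largest armadillo ratios also took in the collagen genes COL4A2 and COL1A1, the laminin LAMB1, the matricellular genes TNC, POSTN and FBLN5, and the guidance cues SEMA4C and SLIT3.

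The largest ratio in favour of platypus was that of PDK1, a kinase that inhibits pyruvate dehydrogenase, with 1.99 normalised CPM in armadillo and 789 in platypus, a ratio of 396 (274 to 593). MSX1, a homeobox transcription factor that in mouse takes part in preparing the uterus for implantation, had 2.20 in armadillo and 708 in platypus, a ratio of 322 (227 to 473). RCN2, a calcium-binding protein of the ER, had 68.5 in armadillo and 21137 in platypus, a ratio of 309 (289.7 to 329). PDK1 and MSX1 were near the lower limit in armadillo, with 29 and 32 reads. RCN2 was not, with 997 armadillo reads and 43072 platypus reads. The dog library, in plain CPM here and below, had 28.0 CPM of PDK1, 3.16 CPM of MSX1 and 51.1 CPM of RCN2. Other large platypus ratios were those of SAP30L (a subunit of a histone deacetylase complex), which had 3.09 in armadillo and 721 in platypus, and of the scaffold gene IQGAP2, which had 8.04 in armadillo and 844 in platypus. Between these, RASD1 (a RAS-like GTPase) and DHTKD1 (an enzyme of lysine breakdown) had ratios of 134 and 107 in favour of platypus.

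Gene length moved with the ratio and bears on every group below. A length of the dog gene model of the same symbol could be derived for 3692 members (87.1%). In the 370 shortest genes, with a median length of 597 bases, the median level was 17.1 normalised CPM in armadillo and 42.0 in platypus, and 7.03% of genes were called higher in armadillo and 33.2% higher in platypus. In the 370 longest, with a median of 5161 bases, the median level was 68.0 in armadillo and 27.5 in platypus, and 34.9% were called higher in armadillo and 5.41% in platypus. Across genes, length had a Spearman correlation of 0.29 with the armadillo level and of -0.07 with the platypus level, as a description. A straight line of the log2 ratio on log2 length rose by 0.69 per doubling of length. The length-adjusted log2 ratio used below is the distance from that line, centred on a median of 0. On it, 737 genes passed 4-fold in favour of armadillo and 638 in favour of platypus. The adjustment was chosen after the data were seen, dog lengths stand in for those of both species, and the part of length in any 1 result was not tested.

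**Figure D2:**
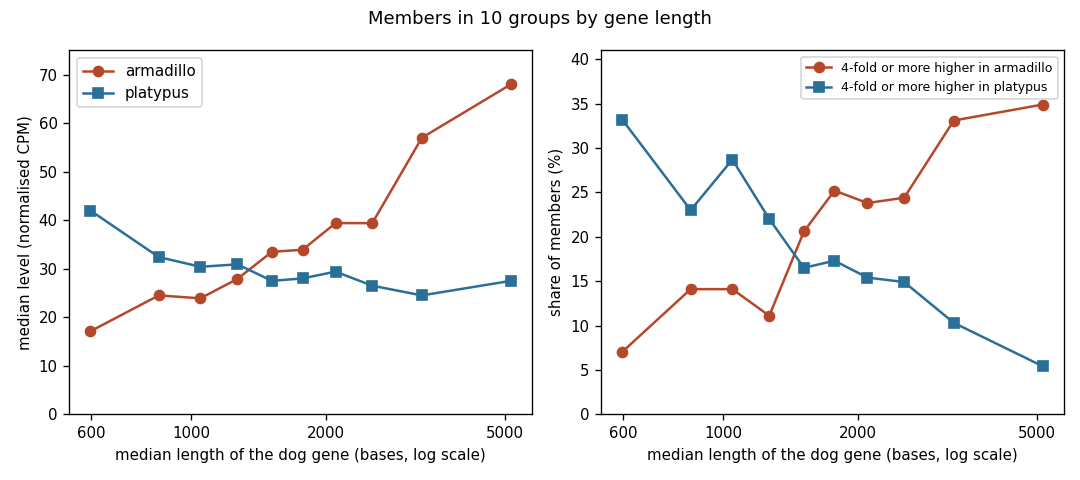
The 3692 members with a dog gene-model length, in 10 groups from shortest to longest (x axis: median length in bases, log scale). The left panel gives the median level in normalised CPM, where armadillo climbs to 68.0 and platypus lies at 42.0 and below; the right panel gives the share called, where the armadillo share climbs to 34.9% and the platypus share falls to 5.41%.

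The matched tables were checked for markers of the tissue and its cell types, with levels on the same scale. Stromal markers summed to 27174 in armadillo, with 9 of 10 listed, and to 9426 in platypus, also with 9 of 10 listed. Epithelial markers summed to 796 in armadillo and 9.81 in platypus, with 6 of 10 listed in each, and CLDN3 and ELF3 were at 0 in platypus. KRT8, KRT19 and CLDN7 were listed once in neither table, so the epithelial label rests on few genes. Endothelial markers summed to 9186 in armadillo, with 6 of 9 listed, and to 25.5 in platypus, with 8 of 9 listed, of which VWF, KDR, TEK, ESAM and PLVAP were at 0. CDH5, listed in platypus alone, gave 22.1 of the platypus sum, and PLVAP gave 6601 of the armadillo sum. Over the 6 listed in both tables the sums were 9186 in armadillo and 2.94 in platypus. A count of 0 allows up to 3 reads, and 1 normalised CPM in platypus stood for 2.04 reads. Smooth muscle markers summed to 24036 in armadillo, with 5 of 8 listed, and 15386 in platypus, with 7 listed. Over the 4 listed in both tables the sums were 14045 in armadillo and 14029.8 in platypus, and TAGLN, listed in armadillo alone, gave 9990.5. Leukocyte markers summed to 637 in armadillo, with 7 of 10 listed, and to 9.81 in platypus, with 5 of 10 listed. Only 2 were listed in both tables, with sums of 501 in armadillo and 5.40 in platypus. Of these sums CD74 gave 499.7 and 5.40. Ciliated cell markers summed to 18.5 in armadillo and 877 in platypus, of which FOXJ1, listed in platypus alone, gave 549. Over the 4 ciliated cell markers listed in both tables the sums were 7.63 in armadillo and 159 in platypus. SPAG6 had 1.58 in armadillo and 126 in platypus, and CCDC40 had 1.37 in armadillo and 30.9 in platypus. TEKT1 (2.95 in armadillo and 1.47 in platypus) and DNAI1 (1.72 in armadillo and 0 in platypus) lay the other way. Of 9 uterus markers, the hormone receptor genes ESR1 and PGR had 1053 and 320.4 in platypus and were not listed once in the armadillo table. Over the 5 uterus markers listed in both tables the sums were 46.9 in armadillo and 969.7 in platypus. Of these sums MSX1 gave 2.20 and 708. In whole tissue, fewer cells of a type and less RNA per cell cannot be told apart.

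**Figure D3:**
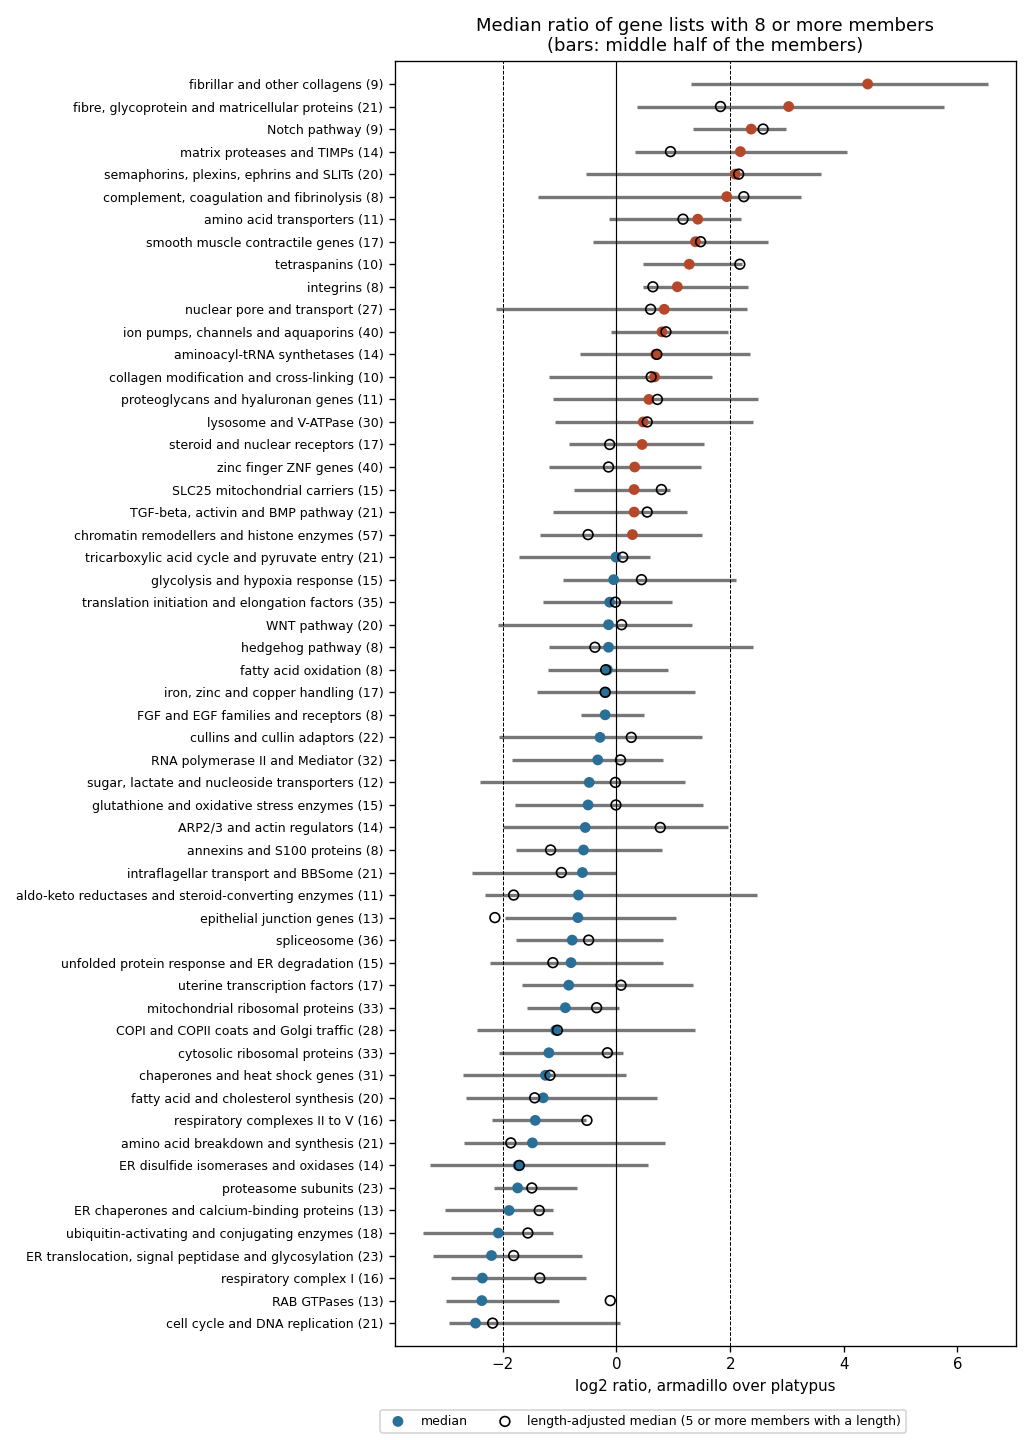
The x axis gives the log2 ratio of armadillo over platypus; the rows are gene lists with 8 or more members, whose number is in brackets. Filled points are medians (red above 0, blue below), bars the middle 50% of members, open circles the median after length adjustment (where 5 or more members have a length), and dashed lines 4-fold. Collagens and matricellular proteins lie at the armadillo end, with medians of 4.42 and 3.03. The cell cycle list lies at the platypus end at -2.48. RAB GTPases and ribosomal proteins have open circles nearer 0, but these cover only the members with a length. For RAB GTPases those are 5 of 13, with a median of -1.02 before adjustment.

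Genes of the extracellular matrix leaned to armadillo. Of 19 collagen genes matched, 9 were members, and 5 of them were at least 4-fold higher in armadillo and 0 in platypus, with a median log2 ratio of 4.42, or 1.68 at 10 CPM in both libraries. COL4A2 and COL4A1, the main chains of basement membrane collagen, had 4128 and 3466 normalised CPM in armadillo, against 14.2 and 81.5 in platypus. COL3A1, a fibrillar collagen of soft tissue, had 6924 in armadillo and 324 in platypus, a ratio of 21.4 (19.8 to 23.1). The 2 chains of type I collagen did not move alike. COL1A1 had 1722 in armadillo and 8.34 in platypus, a ratio of 206 (129 to 354), whereas COL1A2 had 4344 in armadillo and 1727 in platypus and was not called. COL6A3 and COL14A1 were also within 4-fold, and COL4A6 was the only collagen member with the higher value in platypus, at 23.7 in armadillo and 42.7 in platypus.

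Of 21 fibre, glycoprotein and matricellular members, 12 were called higher in armadillo and 1 in platypus, with a median log2 ratio of 3.03. On the 19 with a length the median was 2.41, and 1.83 after length adjustment. FBLN1 (fibulin-1) had 2573 in armadillo and 2.94 in platypus, the platypus value from 6 reads, a ratio of 874 (401 to 2382). FBN1 (fibrillin-1, the core of elastic microfibrils) had 723 in armadillo and 2.94 in platypus. TNC (tenascin-C), a matricellular protein of remodelling tissue, had 3672 in armadillo and 33.4 in platypus, a ratio of 110.0 (86.8 to 142). CTGF, a matricellular growth factor modulator, had 859 in armadillo and 15.7 in platypus. POSTN (periostin) had 693 in armadillo and 8.83 in platypus. The exception was MFAP2, another microfibril protein, with 2.82 in armadillo and 107 in platypus, a ratio of 38.0 (27.1 to 54.4) in favour of platypus. SPARC, a collagen-binding glycoprotein, had 1589 in armadillo and 5336 in platypus and was below the 4-fold limit, as were the nidogens NID1 and NID2.

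The 11 proteoglycan and hyaluronan members were split, 4 called higher in armadillo and 1 in platypus, with a median log2 ratio of 0.57. HSPG2 (perlecan, of basement membranes) had 2372 in armadillo and 85.9 in platypus. Small leucine-rich proteoglycans were divided. ASPN (asporin) had 55.5 in armadillo and 9.32 in platypus and was called for armadillo, and PODN (podocan) had 72.0 in armadillo and 28.5 in platypus, within 4-fold. LUM (lumican) had 302 in armadillo and 1376 in platypus, a ratio of 4.56 (4.34 to 4.78), and DCN (decorin) had 1515 in armadillo and 5614 in platypus, a ratio of 3.71 that missed the limit. Of 4 laminin members 3 were higher in armadillo, led by LAMB1 with 1348 in armadillo and 8.83 in platypus, while its partner chain LAMC1 had 409 in armadillo and 358 in platypus. On the 3 laminins with a length the median log2 ratio was 2.55, and 1.36 after adjustment. Among 8 integrins, the receptors for this matrix, 3 were higher in armadillo and 0 in platypus. Their median log2 ratio was 1.07, and 0.64 after length adjustment. After adjustment 2 integrins passed 4-fold in favour of armadillo and 1 in favour of platypus. ITGA5, part of the fibronectin receptor, had 986 in armadillo and 3.44 in platypus, and its partner ITGB1 had 1048 in armadillo and 233 in platypus, a ratio of 4.49 (4.10 to 4.93). Partner chains of the same protein thus had ratios that differed by far more than counting error in type I collagen, laminin and integrin.

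Proteases of the matrix also leaned to armadillo. Of 14 matrix proteases and TIMPs (tissue inhibitors of metalloproteinases), 7 were called higher in armadillo and 1 in platypus, with a median log2 ratio of 2.18. On the 11 with a length the median was 1.73, and 0.95 after adjustment. MMP2, a gelatinase, had 2301 in armadillo and 109 in platypus, and MMP14, the membrane protease that activates it, had 514 in armadillo and 26.0 in platypus. TIMP3, an inhibitor held in the matrix, had 899 in armadillo and 89.3 in platypus. ADAMTS8 had 1082 in armadillo and 3.44 in platypus, whereas its relative ADAMTS5 (an aggrecanase) had 35.9 in armadillo and 186 in platypus, a ratio of 5.18 (4.52 to 5.92) in favour of platypus. The 10 collagen-modifying genes were near the background, with 2 calls in favour of armadillo and 1 in favour of platypus. P4HB, a subunit of prolyl 4-hydroxylase and itself a disulfide isomerase, had 1135 in armadillo and 25.0 in platypus. PPIB (cyclophilin B, which folds procollagen) had 952 in armadillo and 5131 in platypus. Serpins (5 members) and ADAM proteases (3 members) had too few members to describe as families. SERPING1, the inhibitor of complement C1, had 1136 in armadillo and 55.9 in platypus.

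**Figure D4:**
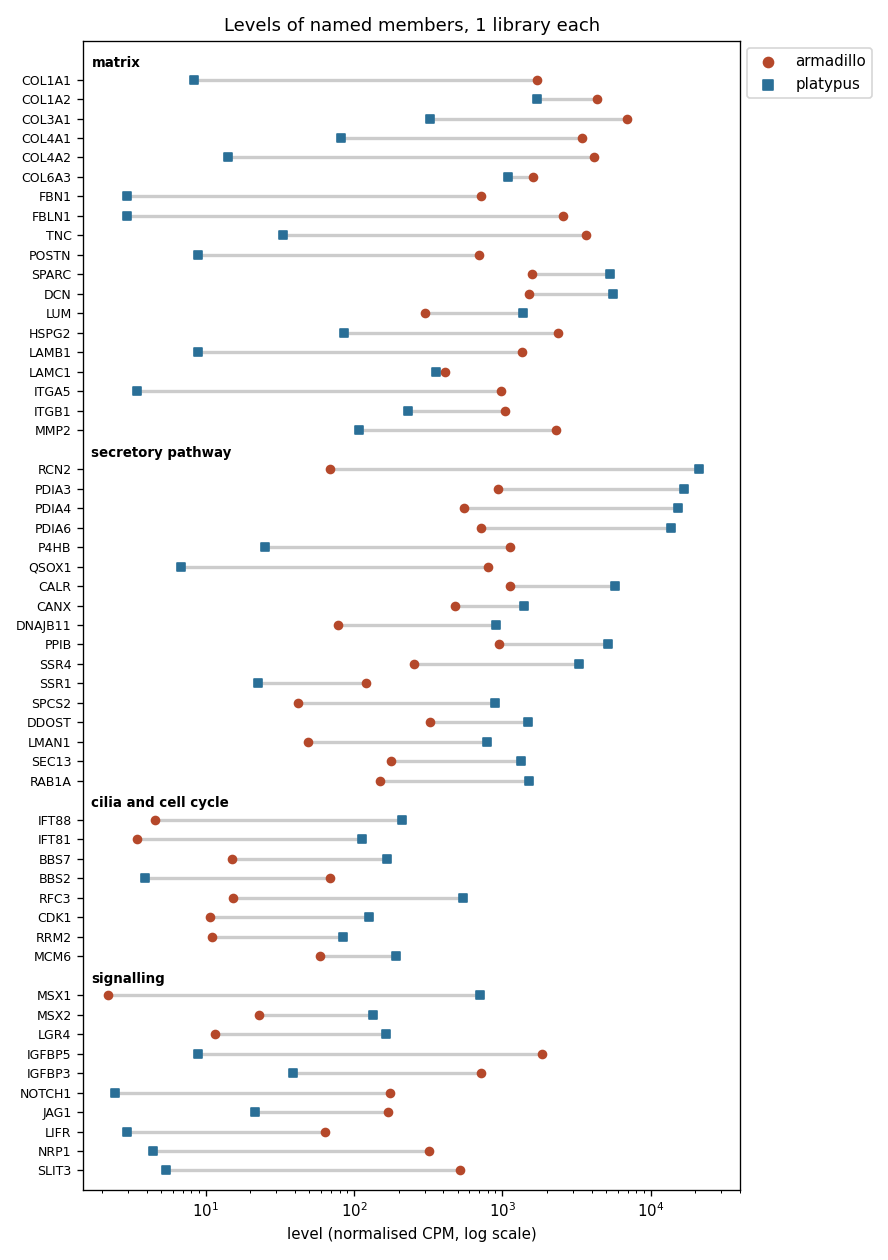
Levels of named members in the armadillo (red circles) and the platypus library (blue squares), 1 library each, in normalised CPM on a log scale. Most matrix genes have the armadillo point on the right, with SPARC, DCN and LUM the other way round; most secretory pathway genes have the platypus point on the right, with P4HB, QSOX1 and SSR1 the other way round.

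Smooth muscle genes leaned to armadillo by count, with 6 of 17 members called higher there and 2 in platypus, and a median log2 ratio of 1.39. The summed levels did not, at 22353 in armadillo and 23192 in platypus, where ACTA2 gave 12442 of the platypus sum. MYH11, the myosin heavy chain of smooth muscle, had 9812 in armadillo and 305 in platypus, a ratio of 32.2 (29.8 to 34.9). The filament gene SYNM had 1305 in armadillo and 11.8 in platypus, and the adhesion gene VCL (vinculin) had 992 in armadillo and 12.8 in platypus. MYLK, the kinase that switches on smooth muscle myosin, had 1216 in armadillo and 191 in platypus. ACTA2, smooth muscle actin, went against these, with 147 in armadillo and 12442 in platypus, a ratio of 84.9 (81.2 to 88.8) in favour of platypus. Actin genes are close copies of each other, and the share of their reads given to each copy is uncertain. TPM1, a tropomyosin, had 1216 in armadillo and 5041 in platypus, a ratio of 4.15 (4.05 to 4.25) in favour of platypus. VIM (vimentin, the intermediate filament of stromal cells) had 9292 in armadillo and 356 in platypus, a ratio of 26.1 (24.2 to 28.1). Among 14 genes of the ARP2/3 complex and other actin regulators, 4 were called in each direction. MSN (moesin) had 812 in armadillo and 55.5 in platypus, and ARPC3 had 112 in armadillo and 941 in platypus. The 7 non-muscle myosins had 2 calls for armadillo and 1 for platypus, the last being MYO5C, an epithelial vesicle motor, with 2.75 in armadillo and 177 in platypus.

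Vessel genes were mostly lost to the 2 CPM limit in platypus. Of 19 matched endothelial genes only 4 were members, with 3 called higher in armadillo and 1 in platypus. NOS3, the nitric oxide synthase of endothelium, had 457 in armadillo and 2.94 in platypus, and FLT1 (a VEGF receptor of vessels) had 318 in armadillo and 2.94 in platypus, both with 6 platypus reads. LMO2, a cofactor of blood and vessel development, had 14.9 in armadillo and 61.3 in platypus. The neuropilins NRP1 and NRP2, co-receptors for growth factors and semaphorins, had 320.3 and 395 in armadillo, against 4.42 and 5.89 in platypus. PDGFD, a growth factor for mesenchymal cells, had 4.19 in armadillo and 73.6 in platypus. Of 8 genes of complement, coagulation and fibrinolysis, 4 were higher in armadillo, among them PLAT (tissue plasminogen activator) with 610.3 in armadillo and 13.7 in platypus, and 1 was higher in platypus, SERPINF2 (the plasmin inhibitor) with 3.30 in armadillo and 60.4 in platypus. The endothelial marker sums given above moved with these genes, and their part in the result was not tested.

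Genes of the secretory pathway leaned to platypus in 4 of 5 lists and were nearer the background in the other. Of 14 ER disulfide isomerases and oxidases, which form and rearrange disulfide bonds, 7 were higher in platypus and 2 in armadillo, with a median log2 ratio of -1.73. Their levels summed to 4783 normalised CPM in armadillo and 48451 in platypus. PDIA3 had 931 in armadillo and 16884 in platypus, PDIA4 had 553 in armadillo and 15214 in platypus, and PDIA6 had 722 in armadillo and 13673 in platypus. Their ratios, 18.1 (17.8 to 18.5), 27.5 (26.8 to 28.2) and 18.9 (18.5 to 19.4) in favour of platypus, rest on at least 8052 reads in each library. The dog library had 933 CPM of PDIA3, 1161 CPM of PDIA4 and 462 CPM of PDIA6. The 2 calls for armadillo were P4HB, given above, and QSOX1, a secreted sulfhydryl oxidase, with 806 in armadillo and 6.87 in platypus.

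Of 13 ER chaperones and calcium-binding proteins, 6 were higher in platypus and 2 in armadillo, with a median log2 ratio of -1.89 and sums of 3554 in armadillo and 36616 in platypus. RCN2 made up most of the platypus sum. CALR (calreticulin, a lectin chaperone for glycoproteins) had 1134 in armadillo and 5715 in platypus, a ratio of 5.04 (4.92 to 5.16). DNAJB11, a co-chaperone of the ER heat shock protein, had 77.7 in armadillo and 902 in platypus. CLGN (calmegin) had 4.54 in armadillo and 99.6 in platypus. FKBP7 and UGGT1 were the calls for armadillo, FKBP7 with 60.3 in armadillo and 2.45 in platypus from 5 reads. Of 15 genes of the unfolded protein response and ER degradation, 4 (26.7%) were higher in platypus and 2 in armadillo, with a median log2 ratio of -0.80. EDEM3, which trims mannose from misfolded glycoproteins, had 39.4 in armadillo and 621 in platypus. The sensors of the response, ATF6, ERN1 and EIF2AK3, all lay within 4-fold.

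Of 23 genes of ER translocation, signal peptidase and glycosylation, 12 were higher in platypus and 2 in armadillo, with a median log2 ratio of -2.20. All 3 listed subunits of signal peptidase with SPCS names were called in favour of platypus. SPCS1 had 29.3 in armadillo and 898 in platypus, SPCS2 had 42.0 in armadillo and 890.2 in platypus, and SPCS3 had 6.94 in armadillo and 223 in platypus. SSR4, a subunit of the translocon-associated protein complex, had 254 in armadillo and 3299 in platypus, while SSR1 of the same complex had 121 in armadillo and 22.6 in platypus and was called the other way. The pore gene SEC61A1 had 316 in armadillo and 437 in platypus, within 4-fold. Of 28 genes of COPI and COPII coats and Golgi traffic, 10 were higher in platypus and 6 in armadillo. LMAN1, a cargo receptor for glycoproteins, had 49.1 in armadillo and 794 in platypus, and the coat gene SEC13 had 178 in armadillo and 1333 in platypus. ARFGAP2 and STX5 were among the calls for armadillo. After length adjustment the median log2 ratio was -1.71 for isomerases, -1.36 for ER chaperones, -1.12 for the unfolded protein response and ER degradation, -1.81 for translocation and -1.04 for coats. The translocation value rests on the 9 of 23 genes with a length, whose median before adjustment was -2.35.

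The 13 RAB GTPases, which direct vesicles to their targets, had 7 calls for platypus and 0 for armadillo, with a median log2 ratio of -2.37. RAB1A (ER to Golgi) had 151 in armadillo and 1510.5 in platypus, and RAB2A had 51.8 in armadillo and 642 in platypus. Only 5 of the 13 had a length, with a median of -1.02 before and -0.11 after adjustment. The plasma cell markers DERL3 and XBP1, which also act in secretory cells in general, were high in platypus at 964 and 808. DERL3 had 1.24 in armadillo and XBP1 was not listed there once. IGJ, a defining plasma cell gene, was at 0 in platypus, and SDC1 was also at 0.

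Epithelial genes were few and divided. KRT7, a keratin of simple epithelium, was the only keratin member and had 489 in armadillo and 2.45 in platypus, the platypus value from 5 reads. Of 13 genes of epithelial junctions 3 were called in each direction. DSP (desmoplakin, of desmosomes) had 133 in armadillo and 1362 in platypus, a ratio of 10.2 (9.65 to 10.8) in favour of platypus, and TJP3 had 2.68 in armadillo and 53.0 in platypus. Its relative TJP1, of tight junctions, had 423 in armadillo and 22.1 in platypus, and the polarity gene PARD3 had 151 in armadillo and 4.42 in platypus. CDH1 (E-cadherin) was low in both, with 6.18 in armadillo and 4.42 in platypus, a ratio whose interval of 0.706 to 3.16 takes in 1. On the 7 junction genes with a length the median log2 ratio was -1.61, and -2.14 after adjustment.

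Cilium genes leaned to platypus as far as they could be compared. Of 28 matched genes of motile cilia only 4 were members, with 1 called, RSPH9 (a radial spoke protein) with 3.71 in armadillo and 15.2 in platypus. Genes of intraflagellar transport and the BBSome, which build cilia of any kind, gave 21 members, with 8 higher in platypus and 4 in armadillo and a median log2 ratio of -0.60. IFT88 had 4.54 in armadillo and 212 in platypus, a ratio of 46.9 (36.1 to 61.7), and IFT81 had 3.44 in armadillo and 114 in platypus. IFT172, IFT20 and IFT74 of the same transport trains were within 4-fold. BBS2 went the other way, with 68.6 in armadillo and 3.93 in platypus, while BBS7 of the same BBSome had 15.0 in armadillo and 167 in platypus. The ciliated cell marker sums given above moved with this list, though the markers TEKT1 and DNAI1 did not. The part of these sums in the result was not tested.

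Growth factor and receptor genes were compared by pathway. Of 7 members of the insulin-like growth factor axis 4 were higher in armadillo and 0 in platypus, with a median log2 ratio of 2.05. IGFBP3, the main carrier in serum, had 718 in armadillo and 38.8 in platypus, and the receptors IGF1R and INSR had 80.7 and 409.7 in armadillo, against 11.8 and 98.6 in platypus. The ligand gene IGF1 was alike, with 43.4 in armadillo and 45.1 in platypus (ratio 1.04 in favour of platypus, 0.826 to 1.30). Of 9 Notch pathway genes 5 were higher in armadillo and 0 in platypus, with a median of 2.37. NOTCH1, a receptor, had 176 in armadillo and 2.45 in platypus, its ligand JAG1 had 169.9 in armadillo and 21.6 in platypus, and the coactivator MAML1 had 47.5 in armadillo and 3.44 in platypus. Of 6 genes of gp130 signalling, used by leukaemia inhibitory factor, 4 were higher in armadillo and 0 in platypus. On the 3 with a length the median log2 ratio was 2.23, and 1.61 after adjustment. The receptors LIFR and OSMR had 63.8 and 90.2 in armadillo, each against 2.94 in platypus from 6 reads. SOCS3, the feedback inhibitor, had 127 in armadillo and 3.44 in platypus, whereas the kinase JAK1 was within 4-fold at 302 in armadillo and 96.2 in platypus.

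Among 20 semaphorins, plexins, ephrins, SLITs and their receptors, 10 were higher in armadillo and 4 in platypus, with a median log2 ratio of 2.09. At 10 CPM in both libraries that median was 0.14. The ligands SEMA4C and SLIT3 had 552 and 522 in armadillo, each against 5.40 in platypus. The receptor NEO1 had 299 in armadillo and 9.81 in platypus. ROBO1, a SLIT receptor, lay the other way, with 22.8 in armadillo and 102 in platypus, as did the netrin NTN1 with 19.7 in armadillo and 85.9 in platypus. The WNT pathway had 20 members, 3 called for armadillo and 5 for platypus, with a median of -0.14. The R-spondin receptor LGR4 had 11.5 in armadillo and 164 in platypus, the receptor FZD2 had 22.4 in armadillo and 138 in platypus, and the feedback gene AXIN2 had 7.35 in armadillo and 37.8 in platypus. SFRP4, a secreted WNT inhibitor, had 80.8 in armadillo and 3.93 in platypus. The 21 members of the TGF-beta, activin and BMP pathway had 3 calls for armadillo and 2 for platypus. ACVR1, a BMP receptor, had 47.9 in armadillo and 342 in platypus, the ligand BMP6 had 103 in armadillo and 10.3 in platypus, and the other 16 members, SMAD1, SMAD2, SMAD3 and SMAD4 among them, lay within 4-fold. Hedgehog genes (8 members) had 3 calls for armadillo, with the co-receptor BOC at 60.3 in armadillo and 3.44 in platypus, and 0 for platypus. Their median log2 ratio was -0.14, with 4 members above 0 and 4 below. The 8 genes of FGF and EGF families had 2 calls for armadillo and 0 for platypus, 1 of them EGFR with 48.0 in armadillo and 5.40 in platypus. The median of these 8 was -0.20, and 6 of them had the higher value in platypus.

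Transcription factors of the uterus were near the background as a list, with 4 of 17 members higher in armadillo and 3 in platypus. The 3 in favour of platypus were MSX1, described above, its relative MSX2 with 22.9 in armadillo and 134 in platypus, and SNAI2, a repressor of epithelial genes, with 44.8 in armadillo and 243 in platypus. ZEB1, another such repressor, lay the other way, with 332 in armadillo and 7.85 in platypus, a ratio of 42.3 (26.0 to 74.0). FOXO1, which marks decidual stromal cells in human, had 55.7 in armadillo and 45.6 in platypus. Of 6 HOX cluster genes HOXA5 and HOXB7 were called in favour of platypus and HOXD3 in favour of armadillo, and HOXA10, needed for implantation in mouse, lay within 4-fold. Of 17 genes of the steroid and nuclear receptor list 12 lay within 4-fold, among them the glucocorticoid receptor NR3C1 with 47.4 in armadillo and 46.6 in platypus. That list also holds the coregulator genes NCOA2, NCOA3, NCOA6, NCOA7 and NCOR1 and the membrane component genes PGRMC1 and PGRMC2. Of these NCOA6 and NCOA7 were called for armadillo and PGRMC2 for platypus. The 2 lipid-sensing receptors were called in opposite directions. PPARA had 1.86 in armadillo and 109.9 in platypus, and PPARG had 62.9 in armadillo and 3.44 in platypus. Of 6 prostaglandin genes PTGES, a prostaglandin E synthase, was higher in armadillo (54.5, against 5.89 in platypus), and PTGES3 was higher in platypus (88.3 in armadillo and 525 in platypus).

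Immune genes seldom reached 2 CPM in platypus. Of 23 matched leukocyte genes 3 were members, of 33 chemokine and interleukin genes 6 were, and of 18 genes of antigen presentation and interferon response 6 were. Calls in these 3 lists were 1, 2 and 3 in favour of armadillo and 0 in favour of platypus. CD74, the invariant chain of class II presentation, had 499.7 in armadillo and 5.40 in platypus, and the interleukin receptor IL13RA1 had 161 in armadillo and 10.3 in platypus. LGALS1 (galectin-1), a lectin linked in mouse to tolerance of the fetus, had 1107 in armadillo and 41.2 in platypus. Only 2 of 14 genes on that list were members, the other being NT5E with 183 in armadillo and 29.4 in platypus. Since members had to reach 2 CPM in both libraries, these counts say nothing of the genes that did not.

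Proliferation genes leaned to platypus. Of 21 members of the cell cycle and DNA replication list 11 were called in favour of platypus and 0 in favour of armadillo, with a median log2 ratio of -2.48 (-2.18 after length adjustment and -1.36 over genes with at least 1 read) and sums of 525 in armadillo and 2313 in platypus. RFC3, a subunit of the clamp loader of replication, had 15.2 in armadillo and 545 in platypus, a ratio of 35.9 (31.0 to 41.6). CDK1, the kinase of mitosis, had 10.7 in armadillo and 126 in platypus, and GINS1 of the replicative helicase had 3.71 in armadillo and 96.2 in platypus. Other genes of dividing cells lay within 4-fold. CCNA2, BUB1B and CENPF had 9.55, 7.42 and 22.4 in armadillo, against 4.42, 4.42 and 14.7 in platypus. The dog library had 58.9 CPM of RFC3, 196 CPM of CDK1 and 29.2 CPM of GINS1.

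Subunits of large complexes, which work in fixed numbers, were not called alike. The middle 50% of log2 ratios spanned 1.45 in the proteasome, 2.17 in cytosolic and 1.62 in mitochondrial ribosomal proteins, against 3.20 over all members, with single subunits far outside those spans. Of 23 genes of the proteasome list 9 were higher in platypus and 2 in armadillo, with a median log2 ratio of -1.74 (-1.49 after length adjustment). The list also holds the assembly factors PSMG1 and PSMG2 and the activator PSME4, of which PSMG2 was called for platypus. PSMD2 had 798 in armadillo and 13.2 in platypus, a ratio of 60.2 (41.4 to 91.4) in favour of armadillo, while PSMA7 had 44.5 in armadillo and 546 in platypus, a ratio of 12.3 (11.1 to 13.5) the other way. Cytosolic ribosomal proteins had 33 members, 10 of them higher in platypus and 1 in armadillo, with a median of -1.19. On the 16 with a length the median was -1.10, and -0.16 after adjustment. RPS3A had 353 in armadillo and 8483 in platypus, and RPS16 had 849 in armadillo and 171 in platypus. Ribosomal protein genes have many processed copies, which makes their single counts uncertain. Mitochondrial ribosomal proteins (33 members) had 8 calls for platypus and 0 for armadillo, with a median of -0.90. On the 27 with a length the median was -0.87, and -0.35 after adjustment.

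**Figure D5:**
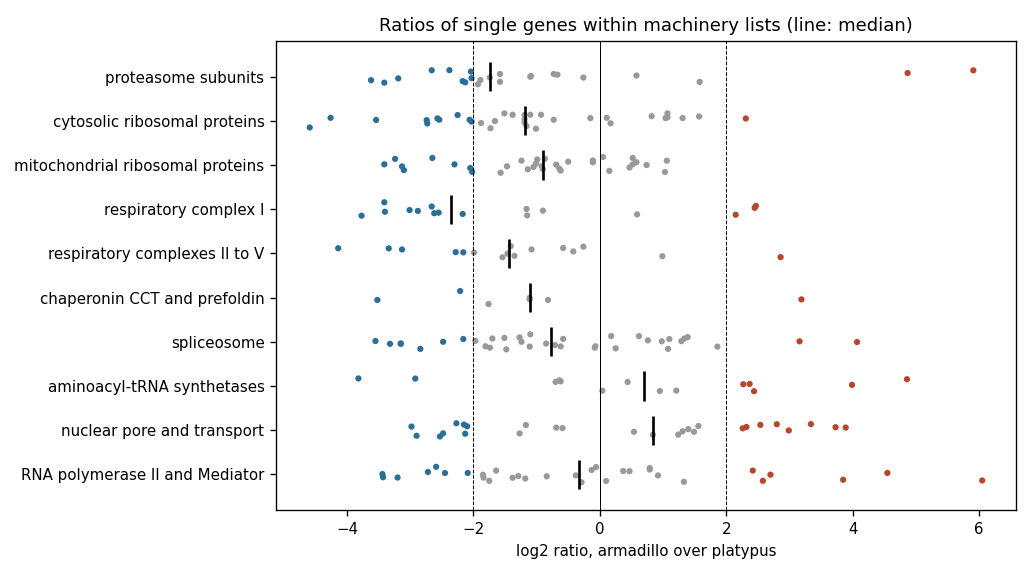
Each point is the log2 ratio of armadillo over platypus of 1 gene in 10 lists of shared cell machinery; black lines are medians and dashed lines 4-fold, with red points called higher in armadillo and blue points higher in platypus. Medians run between -2.36 in complex I and 0.84 in the nuclear pore, and subunits of the proteasome and of Mediator lie past 4-fold on both sides.

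Complexes of gene expression had calls on both sides, at shares of 18.8% for armadillo and 21.9% for platypus in the polymerase list, 5.56% and 19.4% in the spliceosome and 19.3% and 15.8% among chromatin genes, near or below the background of 21.0% and 19.0%. Of 32 genes of RNA polymerase II, its general factors and Mediator, 6 were called for armadillo and 7 for platypus. The Mediator subunit MED15 had 227 in armadillo and 3.44 in platypus, and MED18 had 9.83 in armadillo and 106 in platypus. Nuclear pore and transport genes had 8 calls in each direction among 27. RAN, the GTPase of nuclear transport, had 232 in armadillo and 1343 in platypus, and the exporter of importins CSE1L had 80.1 in armadillo and 5.40 in platypus. Spliceosome genes had 2 calls for armadillo and 7 for platypus among 36. Chromatin genes had 11 for armadillo and 9 for platypus among 57, with the acetyltransferase EP300 at 259.5 in armadillo and 17.7 in platypus and the Polycomb subunit SUZ12 at 8.66 in armadillo and 123 in platypus. Genes of the translation factor list were closer, with 29 of 35 members within 4-fold and a median of -0.12. That list also holds the Argonaute genes EIF2C1, EIF2C3 and EIF2C4 and the kinases EIF2AK3 and EIF2AK4. Of these only EIF2C1 was called, for armadillo. EEF1A1 had 19131 in armadillo and 14852 in platypus, and EEF2 had 5032 in armadillo and 10132 in platypus. Of 14 genes of the aminoacyl-tRNA synthetase list 5 were higher in armadillo, led by KARS with 356 in armadillo and 12.3 in platypus, and 2 in platypus, 1 of them the scaffold AIMP1 with 27.1 in armadillo and 382 in platypus.

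Other lists of protein quality control also leaned to platypus. Of 31 chaperones and heat shock genes 12 were higher in platypus and 4 in armadillo, with a median log2 ratio of -1.25. Without the 4 genes that also stand on an ER list, 10 of 27 were higher in platypus and 4 in armadillo, with sums of 2663 in armadillo and 15870.0 in platypus. These 27 still hold HSPB11, also on the intraflagellar transport list, and PTGES3, also on the prostaglandin list, both called for platypus. HSPA8, the constitutive HSP70, had 679 in armadillo and 9735 in platypus, with the caveat that close HSP70 copies may share its reads. The steroid receptor co-chaperones FKBP4 and FKBP5 were called in opposite directions. FKBP4 had 57.5 in armadillo and 1349 in platypus, a ratio of 23.5 (21.7 to 25.4) in favour of platypus. FKBP5, a target gene of glucocorticoids and progestins in human cells, had 148 in armadillo and 2.94 in platypus, a ratio of 50.3 (23.1 to 137) in favour of armadillo. Of 18 ubiquitin-activating and conjugating enzymes 9 were higher in platypus and 2 in armadillo, with a median of -2.08 (-1.56 after adjustment). The exception at the top of the cascade was UBA1, the main activating enzyme, with 813 in armadillo and 5.40 in platypus, and UBE2A, a conjugating enzyme, had 11.5 in armadillo and 378 in platypus. UBA1 had 809 CPM in the dog library. Cullins and their adaptors were near the background, with 4 calls for armadillo and 6 for platypus among 22. The 7 chaperonin and prefoldin genes had 1 call for armadillo and 2 for platypus.

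Respiratory chain genes leaned to platypus. Of 16 complex I genes 9 were called for platypus and 3 for armadillo, with a median log2 ratio of -2.36, and -1.35 after length adjustment. NDUFAB1 had 26.7 in armadillo and 366 in platypus, while the core subunit NDUFV1 had 306 in armadillo and 69.2 in platypus. Of 16 genes of complexes II to V 5 were called for platypus and 1 for armadillo, with a median of -1.43, and -0.52 after adjustment. COX6C had 87.7 in armadillo and 1546 in platypus. Genes of the tricarboxylic acid cycle and pyruvate entry were balanced, with 4 and 5 calls for armadillo and platypus among 21, but held some of the largest single ratios. OGDH, of 2-oxoglutarate dehydrogenase, had 521 in armadillo and 7.85 in platypus, a ratio of 66.3 (40.8 to 116). IDH1 and IDH3A, both isocitrate dehydrogenases, had 24.0 and 33.0 in armadillo, against 578 and 458 in platypus, and PDK1 is given above. The glycolysis and hypoxia list had 4 calls for armadillo and 2 for platypus among 15. EPAS1, a hypoxia-inducible factor abundant in endothelium, had 1124 in armadillo and 41.7 in platypus, its partner ARNT had 68.1 in armadillo and 3.44 in platypus, and HIF1AN, an enzyme that inhibits such factors, had 12.2 in armadillo and 191 in platypus.

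Lipid and amino acid metabolism showed calls on both sides. Of 20 genes of fatty acid and cholesterol synthesis 5 were higher in armadillo and 7 in platypus. DHCR7, the last step of cholesterol synthesis, had 12.4 in armadillo and 202 in platypus, INSIG1, the sterol-responsive brake on the pathway, had 27.1 in armadillo and 311 in platypus, and the regulator SREBF1 had 92.4 in armadillo and 5.40 in platypus. The 8 genes of fatty acid oxidation had 1 call in each direction, with HADH at 30.6 in armadillo and 512 in platypus. Of 21 genes of amino acid and polyamine metabolism 5 were higher in armadillo and 8 in platypus, with a median log2 ratio of -1.48 (-1.86 after adjustment). The 2 ends of polyamine turnover were called in opposite directions. AMD1, which commits to polyamine synthesis, had 24.9 in armadillo and 571 in platypus, and SAT1, the rate-limiting enzyme of polyamine breakdown, had 385 in armadillo and 7.36 in platypus. CBS, of the transsulfuration of homocysteine, had 9.28 in armadillo and 213 in platypus.

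Transporter lists lay mostly near the background. Of 11 amino acid transporters 3 were higher in armadillo and 0 in platypus, with a median log2 ratio of 1.43 that came to -0.01 over genes with at least 1 read, and with SLC7A5, a carrier of large neutral amino acids, at 139 in armadillo and 6.87 in platypus. The glucose transporter SLC2A1 had 97.8 in armadillo and 11.3 in platypus, and its list of 12 sugar, lactate and nucleoside transporters had 3 calls for armadillo and 4 for platypus. Iron, zinc and copper genes had 4 calls in each direction among 17, with the copper importer SLC31A1 at 9.07 in armadillo and 131 in platypus and the haem oxygenase HMOX2 at 112 in armadillo and 7.36 in platypus. Of 40 pumps, channels and aquaporins 10 were higher in armadillo and 5 in platypus. KCNMA1, the large-conductance potassium channel of smooth muscle, had 332 in armadillo and 3.93 in platypus, while its auxiliary subunit KCNMB1 had 149 in armadillo and 132 in platypus. The ER calcium sensor STIM2 had 57.1 in armadillo and 785 in platypus, and its channel partner ORAI1 had 161 in armadillo and 23.6 in platypus. The 15 mitochondrial carriers of family SLC25 were close between species, with 1 call in each direction.

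Of the remaining families, lysosomal genes had 9 calls for armadillo and 3 for platypus among 30. The hydrolase FUCA1 had 303 in armadillo and 14.7 in platypus, and the protease CTSZ had 44.6 in armadillo and 427 in platypus. Annexins and S100 proteins gave ANXA1, an anti-inflammatory phospholipid-binding protein, at 1646 in armadillo and 102 in platypus, and S100A13, which takes part in release of proteins that lack a signal peptide, at 114 in armadillo and 4897 in platypus, a ratio of 43.0 (40.8 to 45.3). ANXA2 and S100A11 were within 4-fold. Of 15 glutathione and oxidative stress genes 2 were higher in armadillo, the regulator NFE2L2 (452, against 9.81 in platypus) and its target NQO1 (369, against 13.7 in platypus), and 3 in platypus, among them GSR, glutathione reductase (84.8 in armadillo and 631 in platypus). Steroid- and retinoid-converting enzymes had 4 calls for armadillo and 5 for platypus among 11. ALDH1A2, which makes retinoic acid, had 105 in armadillo and 2.45 in platypus, and its relative ALDH1A3 had 19.0 in armadillo and 103 in platypus. DIO2, which activates thyroid hormone, had 2.27 in armadillo and 97.2 in platypus. Tetraspanins had 3 calls for armadillo and 0 for platypus among 10, with CD151 at 973 in armadillo and 146 in platypus. Zinc finger genes with ZNF names had 10 and 6 calls for armadillo and platypus among 40.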

How the data were processed

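Per the labels' protocols, RNA came from column extraction with DNase digestion and went into standard Illumina libraries. Bowtie is named in the submitters' processing notes; its version, the builds and the annotation releases are not given in the sources used. The deposited armadillo and platypus values are raw counts, 1 whole number of reads for each gene, per the file headers. Every gene in the armadillo file has a read or more, so a symbol absent from it was not taken as 0. For dog the authors deposited estimated counts and a relative abundance score, from which gene-model lengths were derived: a fitted constant made the lengths whole, within 0.1 bases, for 100.0% of 5644 dog genes above 500 reads.

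The total line of the armadillo table was dropped. Counts were matched by upper-case symbol; genes without a symbol held 10.1% of armadillo and 22.3% of platypus reads. CPM used the sum of the listed genes; median centring (log2 shift 0.28) multiplied armadillo by 0.908 and platypus by 1.10. No pseudocount was used. Exact conditional 95% intervals came from scipy 1.17.1 in Python 3.11.15, and TMM from edgeR 4.0.16; the steps were tested on simulated data. No molecular identifiers are named, and PCR copies of a molecule may narrow the intervals too far. Genes named are the 20 largest ratios per direction with at least 10 reads in the lower library, the 10 highest mean levels, and in each of 78 gene lists up to 5 calls per direction and the highest member; others were named after their values were seen. The members and lists were chosen with earlier results of these data known. Some items are not reported here.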

Additional observations from a re-analysis of the deposited data

How the results depend on the processing

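Plain CPM, upper-quartile scaling and TMM gave 1031, 1031 and 983 genes higher in armadillo and 651, 649 and 710 higher in platypus, against 891 and 803. The first 2 scalings raised the median log2 ratio of armadillo over platypus by 0.28 and TMM by 0.18 relative to median centring. Requiring 10 CPM in both libraries gave 402 and 398 calls among 2730 genes, and at least 1 read gave 1371 and 1227 among 5393; the number of genes compared changes with these limits. A pseudocount of 1 gave 834 and 761 calls, whole intervals beyond 4-fold 605 and 649, summing genes of the same symbol 891 and 803, and length adjustment, chosen after seeing the data, 737 and 638. Of 39 lists with a median of 1 or more in size, the lists with another sign under an alternative were endothelial genes (-1.69 at 10 CPM, -0.77 length-adjusted, with fewer members in both), amino acid transporters (-0.01 at 1 read) and non-muscle myosins (-0.28 length-adjusted); keratins and chemokines had no member at 10 CPM. Of 429 named genes called, none changed direction under any of these alternatives that gave a value. The scalings and limits moved every log2 ratio by the same amount, at most 0.35 in size, and so could not reverse a 4-fold ratio. A pseudocount cannot reverse a ratio, and summing does not change symbols found once. Only length adjustment could have reversed a gene. At least 410 of 429 stayed 4-fold under the other scalings, 230 of 248 at 10 CPM and 293 of 342 after length adjustment. No paired analysis was possible because each species had 1 library, and no replicate could be left out. Platypus depth limits the armadillo calls: a gene at 2 CPM there rests on about 4.49 reads.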
